A study of Mus musculus with 8 samples.

Results

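Retinoid transport and metabolism was followed through 9 genes: the uptake receptor Stra6, the retinol carrier Rbp4, the retinoic acid binding proteins Crabp1 and Crabp2, the retinal dehydrogenases Aldh1a1, Aldh1a2 and Aldh1a3, the receptor Rarb and the degrading enzyme Cyp26b1. They were found by symbol among 23420 gene IDs, and 9 of 9 were present. The genes were chosen on their own values in the 8 libraries described here, so their levels and differences are a description, and no test of them is given. RNA was sequenced from mouse astrocytes grown either in conventional culture, labelled CV and described as hard, or in MGS, letters that the labels leave unexplained and describe as soft. Libraries were made at day 5 and at day 32 of each culture, so that every combination of culture and day forms 1 of 4 groups, with 2 libraries in each. Total RNA was used in all of them, and the labels name no other treatment, strain, animal age or genetic change. Whether the 2 libraries of a group came from separate cultures is not stated, so p-values cover the spread between libraries and nothing beyond it, which may be technical.

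Cells take up retinol (vitamin A) from its blood carrier, the protein RBP4 bound to transthyretin, through the membrane receptor STRA6. Inside the cell retinol is oxidised to retinal and then, by the ALDH1A enzymes, to retinoic acid, which CRABP proteins bind and CYP26 enzymes break down. Retinoic acid acts through the nuclear receptors RAR, which pair with RXR on repeats of a short DNA motif near their target genes. In the brain the meninges are a known site of retinoic acid synthesis by Aldh1a2, the choroid plexus is known for making transthyretin, and Rarb is a classical gene induced by retinoic acid.

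The promoter of Rarb is shown because Rarb is both a receptor for retinoic acid and a target of it. RefSeq promoter sequences (build GRCm38.p6, 300 bases around each annotated start) were at hand for 7 of the 9 genes, in 12 promoters, and not for Crabp2 and Aldh1a3. They were searched on both strands for direct repeats of the hexamer AGGTCA or AGTTCA or GGGTCA or GGTTCA with spacers of 1, 2 or 5 bases. The Rarb promoter at chr14:16575427-16575726, minus strand, carried 1 such repeat with a spacer of 5, at chr14:16575513-16575529, from base -53 to base -37 relative to the start. The annotated start it belongs to lies upstream of the span that the files give for Rarb. The 2 hexamers are in capitals.
Rarb: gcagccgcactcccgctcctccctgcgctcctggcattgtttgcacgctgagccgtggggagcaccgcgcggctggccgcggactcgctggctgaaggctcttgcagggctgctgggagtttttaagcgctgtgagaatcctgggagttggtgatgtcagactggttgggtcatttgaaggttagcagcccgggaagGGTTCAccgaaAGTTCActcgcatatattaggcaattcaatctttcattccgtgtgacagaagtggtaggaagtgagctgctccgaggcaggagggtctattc
A repeat with this spacer stood in 32 of all 32851 promoters of the table (0.0974%), and a repeat with any of the 3 spacers in 193 (0.588%). Promoters of the other 6 genes held none. Among 48 further genes of the pathway with a promoter, 1 held a repeat, Cyp26a1, whose enzyme breaks down retinoic acid. Its repeat also had a spacer of 5 and lay on the other strand. A match is a description of letters and does not show binding.

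Levels are given in TPM, the abundance of transcripts divided by their length and brought to the same total in each library. The libraries rested on 2.15 to 4.69 aligned gigabases, with the CV libraries the shallower ones at both days. Across genes, the log2 difference between the 2 libraries of a group had an SD of 0.191 to 0.197 in MGS, 0.321 in CV at day 5 and 0.465 in CV at day 32, so CV values carry the larger error. Differences were taken between values of log2(TPM + 1), a scale on which low genes appear to change less than they do. They carry the standard error (SE) of a model fitted to 14904 genes. That model gives each gene a spread shared by all groups, so its SE and p-values do not follow the larger error of CV. They can be too small where CV at day 32 enters and too large within MGS. TPM is relative, and the median gene differed by -0.14 between MGS and CV at day 5 and by 0.56 at day 32, by 0.36 between the days in MGS and by -0.31 in CV. Rescaling by median-of-ratios size factors brings these medians to 0.03, -0.00, -0.02 and 0.01.

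The identity of the cells was checked on marker lists. Beside their counts stand the shares of all genes called higher and lower in MGS by limma at an adjusted p under 0.05. These were 22.5% and 26.4% at day 5, and 52.8% and 14.8% at day 32. Of 9 astrocyte markers, MGS had 5 higher and 1 lower at day 5, and their sum stood at 16910 to 17103 TPM in MGS and 3499 to 3692 in CV. At day 32, 8 of them were higher and 1 lower, with sums of 13811 to 13836 TPM in MGS and 1473 to 1890 in CV. Gfap was the bulk of the MGS sums, at 13723 and 13744 TPM at day 5 and 9571 and 9605 at day 32. Markers of other cell types differed between the cultures as well. Of 14 meningeal fibroblast markers, 14 were higher in MGS at both days, with sums of 12498 to 14388 TPM in MGS and 406 to 415 in CV at day 5, and of 14074 to 14082 and 378 to 552 at day 32. Ptgds was the largest part of the MGS sums, at 6521 and 8262 TPM at day 5 and 10535 and 10493 at day 32. Within MGS, Ptgds and Ogn were higher at day 32 than at day 5 and Lum overlapped. The other meningeal markers were lower at day 32 in both libraries, so the steady sum does not describe them. The defining meningeal members Slc22a6 and Slc47a1 were listed at 0 in all 4 CV libraries. Choroid plexus markers summed to 12659 to 17078 TPM in MGS and 170 to 171 in CV at day 5, and to 2018 to 2041 and 114 to 127 at day 32, with Ttr the bulk of them. Microglia markers changed sides between the days. At day 5, 7 of 8 were higher in MGS and 0 lower, with sums of 258 to 262 TPM in MGS and 79.2 to 97.9 in CV. At day 32, 8 of 8 were lower in MGS, with 2751 to 2799 TPM in CV against 370 to 376 in MGS. C1qa was the largest part of these CV sums of day 32, at 1671 and 1343 TPM. Because the samples are bulk RNA, fewer cells of a type and less RNA per cell cannot be told apart.

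**Figure D1:**
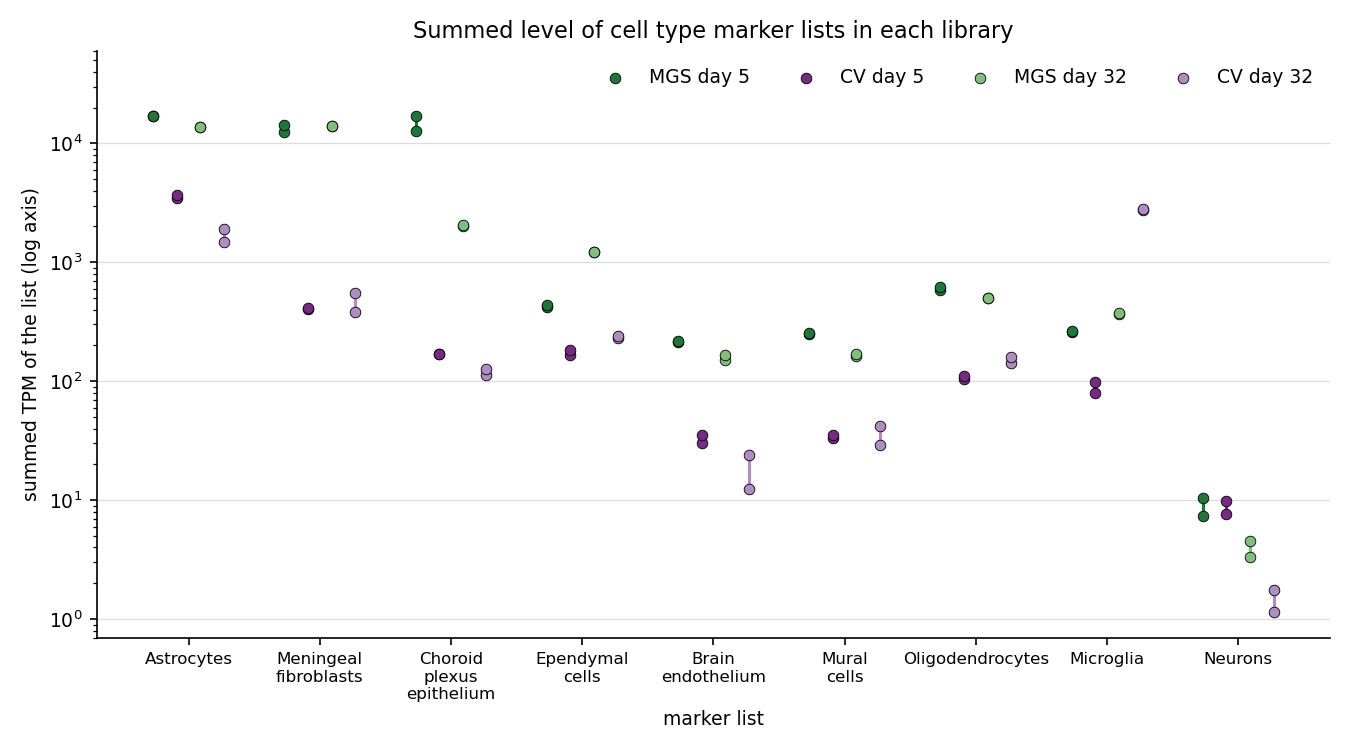
Summed TPM of each cell type marker list (log axis) in each library, coloured by culture and day; a line joins the 2 libraries of a group. Meningeal fibroblast markers, with Ptgds the largest part in MGS, stand at 12498 to 14388 TPM in the MGS libraries and at 378 to 552 TPM in the CV libraries. Microglia markers are highest in CV at day 32, at 2751 to 2799 TPM.

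Stra6, the receptor that takes up retinol from RBP4 (chr9:58129088-58153997, plus strand, mm10), had the largest difference between cultures of the 9 genes at both days. It was listed at 197 and 208 TPM in the MGS libraries of day 5 and at 0.354 and 0.518 in those of CV. At day 32 it stood at 51.1 and 56.5 TPM in MGS and at 0.266 and 0.0463 in CV. Every MGS library was above every CV library, and the 2 MGS groups did not overlap. Group means were 202 ± 7.60 TPM in MGS and 0.436 ± 0.116 in CV at day 5, and 53.8 ± 3.81 and 0.156 ± 0.156 at day 32 (SD, n = 2). The log2 difference between cultures was 7.15 (SE 0.16) at day 5 and 5.57 (SE 0.16) at day 32. Within MGS Stra6 fell by 1.89 (SE 0.16) between the days, a ratio of means of 3.76. In CV it lay under 1 TPM in all libraries, a level where the pseudocount governs the difference.

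Rbp4, the retinol carrier (chr19:38116620-38125321, minus strand), was low and was seen mainly in MGS. Its libraries were listed at 3.76 and 3.89 TPM in MGS at day 5, and at 0 and 0 in CV. At day 32 they were at 12.5 and 11.95 TPM in MGS and at 0.517 and 0 in CV. The MGS groups did not overlap with each other or with CV, and 3 of the 4 CV libraries were listed at 0. Against a group listed at 0 no fold is given. Between the cultures at day 32 the log2 difference was 3.42 (SE 0.20), and within MGS Rbp4 was higher at day 32 by 1.45 (SE 0.20). In MGS, then, the receptor Stra6 was lower and the carrier Rbp4 higher at the later day. Ependymal markers, like Rbp4, had their highest sum in MGS at day 32 (1209 to 1230 TPM, against 421 to 435 in MGS and 166 to 184 in CV at day 5). Their part in the level of Rbp4 was not tested.

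**Figure D2:**
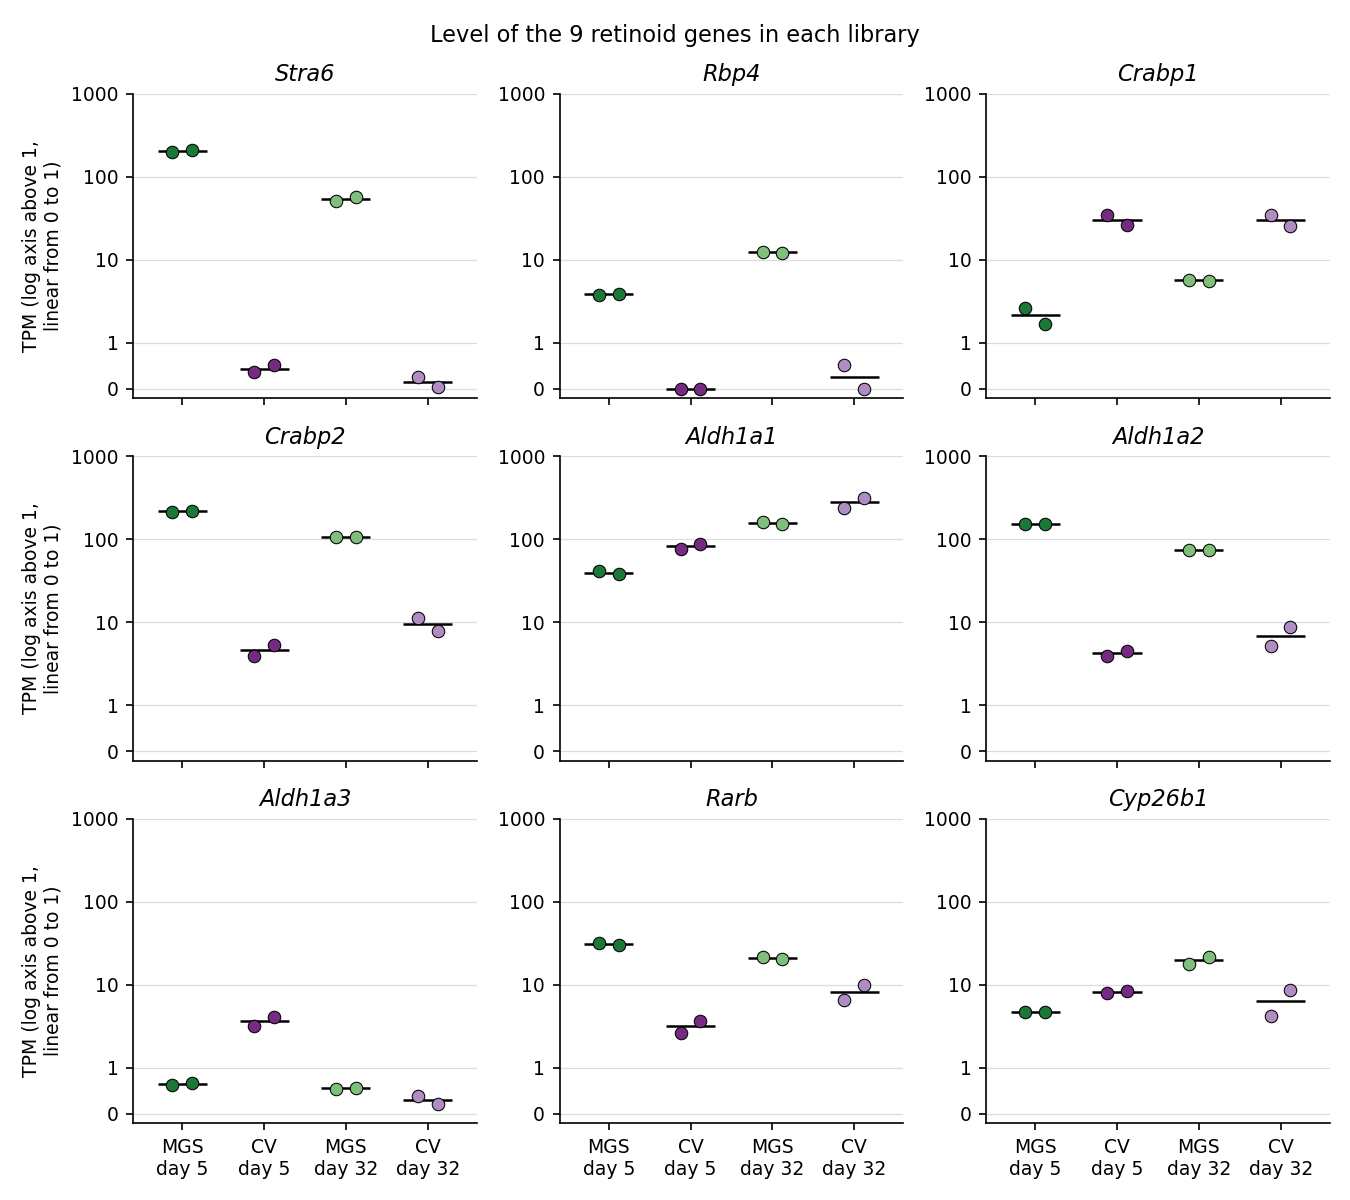
TPM of each of the 9 genes in each library (points) with the group mean (bar), by culture and day; the axis is logarithmic above 1 TPM and linear from 0 to 1. Stra6, Rbp4, Crabp2, Aldh1a2 and Rarb are higher in both MGS groups than in both CV groups, Crabp1 is lower, and Cyp26b1 is highest in MGS at day 32 (17.7 and 21.5 TPM).

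The 2 cellular retinoic acid binding proteins went opposite ways. Crabp2, which is known to carry retinoic acid to nuclear receptors (chr3:87948693-87953372, plus strand), was listed at 215 and 217 TPM in MGS and 3.92 and 5.30 in CV at day 5. The day 32 values were 106 and 105 TPM in MGS and 11.4 and 7.74 in CV. The 4 groups did not overlap, in the order MGS day 5, MGS day 32, CV day 32 and CV day 5. The log2 difference between cultures was 5.28 (SE 0.19) at day 5 and 3.36 (SE 0.19) at day 32, or ratios of means of 46.9 and 11.1. It fell by 1.03 (SE 0.19) in MGS and was higher at day 32 by 0.90 (SE 0.19) in CV.

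Crabp1, the cytosolic binding protein (chr9:54764808-54773109, plus strand), was listed at 2.63 and 1.69 TPM in MGS and at 34.8 and 25.9 in CV at day 5. At day 32 it stood at 5.75 and 5.52 TPM in MGS and 34.6 and 25.6 in CV. All CV libraries were above all MGS libraries, and the 2 CV groups overlapped, with means of 30.3 ± 6.29 and 30.1 ± 6.36 TPM (SD, n = 2). The log2 difference between cultures was -3.31 (SE 0.23) at day 5 and -2.22 (SE 0.23) at day 32, which corresponds to means 14.0 and 5.35 times higher in CV. Within MGS it was higher at day 32 by 1.09 (SE 0.23). Thus Crabp2 exceeded Crabp1 in each MGS library and Crabp1 exceeded Crabp2 in each CV library, on the per-length scale of TPM. Their longest transcripts shared 0 of 778 words of 25 bases.

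The 3 retinal dehydrogenases, which make retinoic acid from retinal, each had a pattern of their own. Aldh1a2, the enzyme known from the meninges (chr9:71215789-71296243, plus strand), was listed at 153 and 152 TPM in MGS and at 3.96 and 4.55 in CV at day 5. At day 32 it stood at 74.7 and 73.7 TPM in MGS and at 5.10 and 8.71 in CV. MGS libraries were above CV libraries at both days without overlap. The log2 difference was 4.87 (SE 0.21) at day 5 and 3.29 (SE 0.21) at day 32, with ratios of means of 35.9 and 10.7. Aldh1a2 fell by 1.03 (SE 0.21) with time in MGS and was higher by 0.55 (SE 0.21) in CV. Beside it, the meningeal fibroblast markers were higher in MGS in 14 of 14 cases at both days, where 22.5% and 52.8% of all genes were. That was not particular to this list. The 7 ependymal and 6 oligodendrocyte markers tested were all higher in MGS at both days as well. Of 6 mural markers tested, 5 were higher at day 5 and 6 at day 32, and 0 were lower. Microglia markers were lower in MGS in 8 of 8 cases at day 32. Foxc1, a transcription factor of the meninges, stood at 147 TPM in both MGS libraries and at 10.1 and 10.5 in CV at day 5. The part of meningeal cells in the level of Aldh1a2, Crabp2 and Stra6 was not tested.

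Aldh1a1 (chr19:20601982-20643462, plus strand) was the most abundant of the dehydrogenases in CV and was higher there than in MGS. It was listed at 41.4 and 37.6 TPM in MGS and 77.0 and 86.3 in CV at day 5, and at 160.3 and 152 TPM in MGS and 239 and 316 in CV at day 32. None of the 4 groups overlapped, and the order ran from MGS day 5 through CV day 5 and MGS day 32 to CV day 32. The log2 difference between cultures was -1.03 (SE 0.15) at day 5 and -0.81 (SE 0.15) at day 32. Between the days it was higher at day 32 by 1.96 (SE 0.15) in MGS and by 1.74 (SE 0.15) in CV. Aldh1a1 has a close neighbour, Aldh1a7 (chr19:20692953-20727556, minus strand), whose transcript shares 15.2% of the 25-base words and 2.19% of the 75-base words of Aldh1a1, so a part of the reads of one may be counted for the other. Aldh1a7 was listed at 5.11 and 4.6 TPM in MGS and 20.2 and 23.6 in CV at day 5, and at 10.5, 8.24, 7.65 and 9.50 TPM in the libraries of day 32.

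Aldh1a3 (chr7:66390893-66427477, minus strand) was the rarest of the 3 and stood out in a single group. It was listed at 0.631 and 0.670 TPM in MGS and at 3.21 and 4.11 in CV at day 5. The values of day 32 were 0.547 and 0.562 TPM in MGS and 0.379 and 0.208 in CV. CV at day 5 was above the other 3 groups, all of which lay under 1 TPM. Its log2 difference between cultures was -1.49 (SE 0.13) at day 5, and in CV it fell by 1.85 (SE 0.13) with time, to a mean 12.5 times lower. At day 32 the difference of 0.27 (SE 0.13) turned negative in 3 of 18 alternative ways of processing, so no direction is given for it.

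Rarb, the retinoic acid receptor beta (chr14:16430840-16575210, minus strand), was listed at 31.8 and 30.4 TPM in MGS and at 2.65 and 3.65 in CV at day 5. Later, at day 32, it was at 21.6 and 20.2 TPM in MGS and at 6.56 and 9.89 in CV. The order of the groups was MGS day 5, MGS day 32, CV day 32 and CV day 5, with no overlap, the same order as for Crabp2 and Aldh1a2. The log2 difference between cultures was 2.96 (SE 0.21) at day 5 and 1.27 (SE 0.21) at day 32, the latter 0.71 above the median gene. The ratio of means went from 9.87 to 2.54. Rarb fell by 0.55 (SE 0.21) in MGS and was higher by 1.14 (SE 0.21) in CV at day 32. Among the 7 genes with a promoter to search, it is the only one whose promoter, printed above, holds a repeat of the hexamer with a spacer of 5.

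Cyp26b1, which degrades retinoic acid (chr6:84571414-84593908, minus strand), changed sides between the days. It was listed at 4.70 and 4.71 TPM in MGS and at 7.93 and 8.42 in CV at day 5. At day 32 it was at 17.7 and 21.5 TPM in MGS and at 4.16 and 8.58 in CV. At day 5 both CV libraries were above both MGS libraries, and at day 32 both MGS libraries were above both CV libraries. The log2 difference was -0.69 (SE 0.28) at day 5 and 1.55 (SE 0.28) at day 32. In MGS it was higher at day 32 by 1.85 (SE 0.28), and in CV the libraries of the days overlapped. The other degrading enzymes of this family were at or near 0, with Cyp26c1 listed at 0 in 8 of 8 libraries and Cyp26a1 at 0 in 7 of 8, with 0.159 TPM in the remaining one of CV at day 32.

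**Figure D3:**
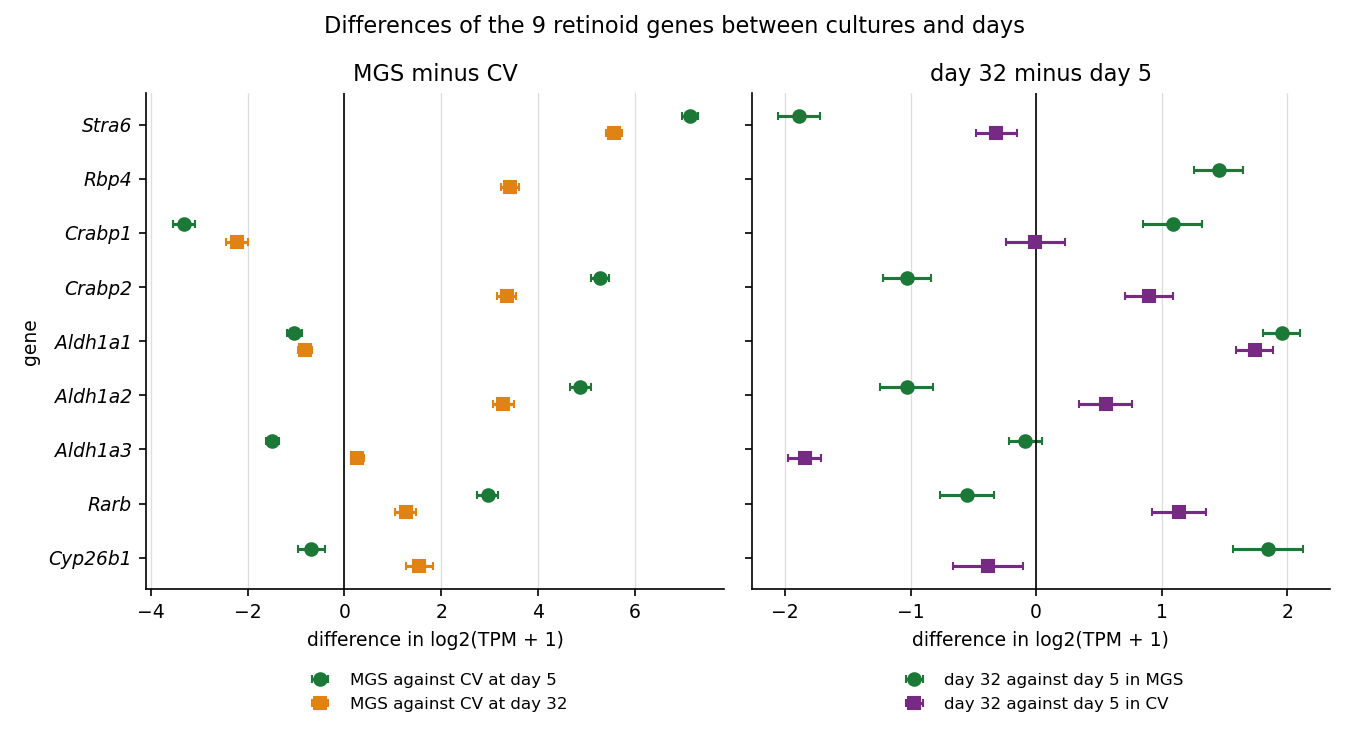
Difference in log2(TPM + 1) of each of the 9 genes between cultures (left) and between days (right), with the SE of the fit as bars; Rbp4 is left out where a group was listed at 0 in both libraries. Cyp26b1 lies at -0.69 at day 5 and at 1.55 at day 32, and Crabp2, Aldh1a2 and Rarb lie below 0 in MGS and above 0 in CV in the comparison of days.

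The fitted difference of the culture effect between the days (day 32 minus day 5) was -1.93 (SE 0.27) for Crabp2, -1.69 (SE 0.30) for Rarb, -1.59 (SE 0.30) for Aldh1a2 and -1.57 (SE 0.23) for Stra6. These 4 genes, higher in MGS at both days, were thus nearer to CV at day 32. For Stra6, under 1 TPM in CV, the size depends on the pseudocount. Its ratio of means went from 463 to 344, and alternatives gave values from -2.10 to -0.71. The term was positive for Crabp1, at 1.10 (SE 0.33), whose deficit in MGS was smaller at day 32. The median gene stood at 0.65, so Crabp1 was 0.44 above it, and its lowest value in an alternative was 0.28. For Aldh1a1 the term was 0.22 (SE 0.21), a value that changed sign in 4 of 18 alternatives.

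Likeness of profile was measured as the root mean square difference of centred log2(TPM + 1) over the 8 libraries, and it is a description. Among the 9 genes the closest pair was Crabp2 and Aldh1a2 (0.343) and the farthest was Stra6 and Crabp1 (4.69). Over all genes tested, Stra6 was nearest to the imprinted RNA H19 (0.218), the transporter gene Slc6a13 (0.342) and Ttr (0.469). H19 stood at 4335 and 4414 TPM in MGS and 43.4 and 35.4 in CV at day 5, and at 1125, 1158, 26.1 and 26.9 TPM in the libraries of day 32. Slc6a13 stands on the list of meningeal fibroblast markers and Ttr on that of the choroid plexus. Crabp2 was nearest to the tricellular junction gene Lsr (0.240), Plac8 (0.242) and the transcription factor gene Foxd1 (0.326), which is also a meningeal marker here. Aldh1a2 was nearest to Lsr (0.190), the water channel gene Aqp1 (0.202) and the ephrin gene Efnb3 (0.239).

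The remaining genes had other neighbours. Rbp4 was nearest to Ppp1r36 (0.137), Gas2l2 (0.142) and the cilium assembly gene Dnaaf1 (0.174). Dnaaf1 stood at 3.67 and 4.15 TPM in MGS at day 5, at 13.4 and 13.6 in MGS at day 32, and under 0.2 TPM in the 4 CV libraries. Crabp1 was nearest to the smooth muscle gene Tagln (0.222), Arhgap22 (0.279) and the kinase gene Nuak2 (0.285). Tagln stood at 504 and 456 TPM in MGS and 3611 and 3089 in CV at day 5, and its CV libraries were also the higher ones at day 32. Rarb was nearest to the transcription factor gene Nfatc4 (0.155), Tenc1 (0.173) and the glycophorin gene Gypc (0.191), and Cyp26b1 to Syt17 (0.129), the Wnt receptor gene Fzd10 (0.141) and Sgsm1 (0.151). Aldh1a1 was nearest to Megf11 (0.142), Plcxd1 (0.195) and the cell cycle inhibitor gene Cdkn2b (0.197), and Aldh1a3 to Mab21l2 (0.134), Rtkn2 (0.145) and Cplx3 (0.15). Distances of genes as low as Aldh1a3 are small partly because the pseudocount narrows their range.

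The rest of the pathway was tested through 68 further genes listed by role, of which 50 passed the filter on low values (at least 1 TPM in at least 2 libraries). The tests were made with limma across all 14904 genes, with Benjamini-Hochberg adjustment and a call at an adjusted p under 0.05. In MGS at day 5, 17 of the 50 stood higher, 19 stood lower and 14 were not called, where 22.5% and 26.4% of all genes tested were called higher and lower. Their median log2 difference was -0.31 beside -0.14 over all genes. At day 32, 27 were higher and 6 lower (54% and 12%), near the 52.8% and 14.8% of all genes, with a median of 0.70 beside 0.56. That split depended on the scaling, with 18 higher and 17 lower after median-of-ratios scaling, 17 and 18 after quantile normalization and 16 and 16 once length and GC content of transcripts were corrected for. Of the genes that did not pass the filter, Rdh8, Adh4, Sdr16c5, Cyp26c1, Hoxb1 and Stra8 were listed at 0 in every library.

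Carriers held the largest difference in each direction among the 50 genes at day 5. Ttr, transthyretin, the partner of RBP4 in blood, was listed at 12453 and 16841 TPM in MGS and 110.4 and 101 in CV at day 5, and at 1878 and 1857 in MGS and 78.9 and 65.1 in CV at day 32 (adjusted p = 6.02e-07 and 1.09e-06). Rbp2, a retinol carrier inside cells known from the intestine, was higher in MGS at day 5 (log2 difference 1.74, adjusted p = 0.000237). Lrp2, the endocytic receptor megalin that takes up retinol with its carrier in the kidney, was listed at 1.42 and 1.5 TPM in MGS and at 57.8 and 78.3 in CV at day 5 (-4.79, SE 0.24, adjusted p = 6.48e-06). Its groups did not differ past the threshold at day 32. Cd36, a lipid scavenger receptor, was higher in MGS at day 5 (2.57, adjusted p = 0.000392) and lower at day 32 (-1.74, adjusted p = 0.00185). Scarb1, a receptor that takes up carotenoids, and Rbp3, a carrier known from the retina, were lower in MGS at day 5 (-0.98 and -1.45, adjusted p = 0.00138 and 0.000425).

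**Figure D4:**
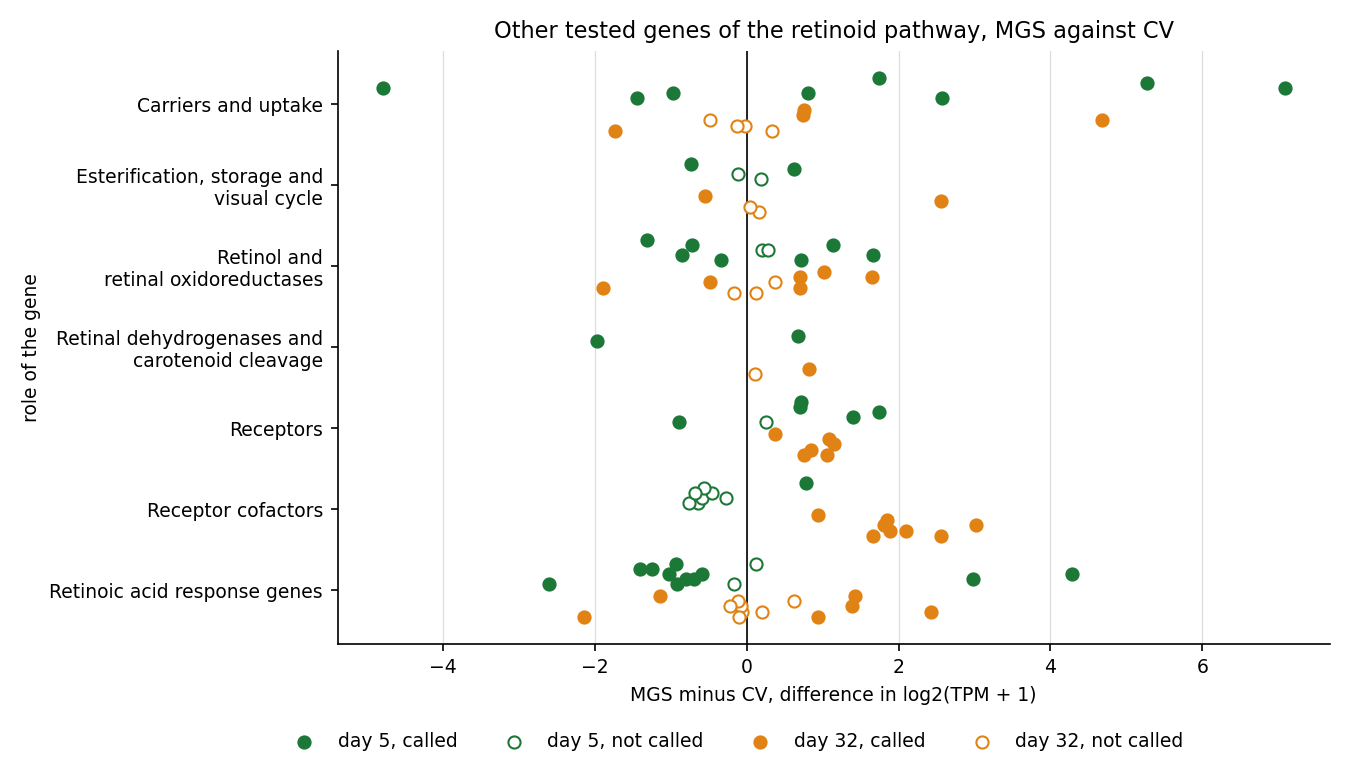
Difference in log2(TPM + 1) between MGS and CV for the 50 other tested genes of the retinoid pathway, by role (rows), at day 5 (green) and day 32 (orange); filled points were called by limma at an adjusted p under 0.05 and open points were not. Receptor cofactors include 1 called gene at day 5 and 8 of 8, to the right of 0, at day 32, when 52.8% of all genes were called higher. Carriers reach from -4.79 (Lrp2) to 7.08 (Ttr) at day 5.

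Enzymes between retinol and retinal were mixed. Of 9 tested, MGS had 3 higher and 4 lower at day 5, beside 22.5% and 26.4% of all genes. At day 32, 4 were higher and 2 lower (44.4% and 22.2%), beside 52.8% and 14.8% of all genes. That split became 2 and 4 after median-of-ratios scaling and 3 and 3 after quantile normalization. Dhrs3, which reduces retinal back to retinol, was listed at 68.7 and 72.5 TPM in MGS and 22.5 and 20.8 in CV at day 5 (log2 difference 1.66, SE 0.10, adjusted p = 1.53e-05). At day 32 the cultures had changed places, with 53.7 and 51.2 TPM in MGS and 197 in both CV libraries (-1.89, SE 0.10, adjusted p = 6.04e-06). Rdh10, which oxidises retinol to retinal, was lower in MGS at day 5 (-0.72, adjusted p = 0.0216) and higher at day 32 (0.70, adjusted p = 0.0168). Each of these 2 calls of Rdh10 was lost in several alternatives, 3 of 18 and 6 of 18. Rdh11 likewise went from lower (-1.31, adjusted p = 0.0034) to higher (1.02, adjusted p = 0.00733), and so did Rdh13, from -0.85 (adjusted p = 0.00776) to 0.70 (adjusted p = 0.0126), the latter lost in 7 of 18 alternatives, with -0.20 under quantile normalization. Rdh5 was higher in MGS at both days (1.13 and 1.65, adjusted p = 0.000304 and 3.18e-05). Rdh12 was higher at day 5 (0.72, adjusted p = 0.015) and Adh5 lower (-0.34, adjusted p = 0.0179), the call of Adh5 being lost in 8 of 18 alternatives. Dhrs4 was lower in MGS at day 32 (-0.48, adjusted p = 0.0197).

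Among genes of storage, the visual cycle and cleavage of carotenoids, 4 of the 6 tested were called at day 5 and 3 of 6 at day 32. Over all genes, 7291 and 10075 of 14904 were called at these days. Rlbp1, a retinal binding protein of the visual cycle and of glia in the retina, was listed at 38.9 and 37.8 TPM in MGS and 24.2 and 24.7 in CV at day 5, and at 15.9 and 15.9 in MGS and 1.55 and 2.24 in CV at day 32. Its log2 difference was 0.63 (adjusted p = 0.0145) at day 5, a call lost in 4 of the 18 alternatives, each without 1 library of that day, and 2.56 (SE 0.16, adjusted p = 1.16e-05) at day 32. Rpe65, at under 2 TPM in all libraries, was lower in MGS at both days (-0.74 and -0.55, adjusted p = 0.00163 and 0.00454). It reached 1 TPM only in CV, and so passed the filter only through the culture where it was higher. Bco2, an enzyme that cleaves carotenoids, was higher at both days (0.68 and 0.82, adjusted p = 0.00899 and 0.00255), and at day 32 it turned to -0.19 under quantile normalization. Aldh1a7 was lower in MGS at day 5 (-1.96, SE 0.19, adjusted p = 0.000134). At day 32 its difference of 0.11 was not called (adjusted p = 0.615), and it became -0.46 under median-of-ratios scaling and -0.85 under quantile normalization.

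Of the other 6 nuclear receptors, MGS had 4 higher and 1 lower at day 5, beside 22.5% and 26.4% of all genes. Rarg, the receptor gamma, was listed at 53.2 and 52.0 TPM in MGS and 14.8 and 15.3 in CV at day 5 (log2 difference 1.74, SE 0.16, adjusted p = 0.000114). It remained higher at day 32, with 46.5 and 48.0 TPM against 17.6 and 24.3 (1.15, SE 0.16, adjusted p = 0.000636). Rara was higher at day 5 (1.40, adjusted p = 0.000354) and at day 32 (0.85, adjusted p = 0.00272), where quantile normalization gave -0.03. Rxrb and Rxra, partners of the RARs, were higher at day 5 (0.72 and 0.70, adjusted p = 0.00119 and 0.0199). Rxrg was lower in MGS at day 5 (-0.89, adjusted p = 0.00292), and at day 32 it stood at 1.01 and 1.16 TPM in MGS and was listed at 0 in both CV libraries. At day 32, 6 of 6 were called higher, beside 52.8% of all genes, but only 3 of 6 after median-of-ratios scaling and 2 of 6 after quantile normalization.

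The 8 receptor cofactors were called in different numbers at the 2 days. At day 5, 1 of 8 was called, where 7291 of 14904 genes were. It was Ncoa3, a coactivator, higher in MGS (0.78, adjusted p = 0.0271), a call lost in 5 of 18 alternatives. At day 32, 8 of 8 were higher in MGS, beside 52.8% of all genes, 7 of 8 after median-of-ratios scaling and 4 of 8, with 1 lower, after that correction for length and GC content. Nrip1, a corepressor bound by receptors, was listed at 11.8 and 12.9 TPM in MGS and at 0.409 and 0.912 in CV (3.02, SE 0.26, adjusted p = 5.02e-05). Crebbp, an acetyltransferase, was listed at 20.3 and 22.1 TPM in MGS and 1.54 and 4.6 in CV (2.55, SE 0.35, adjusted p = 0.000544), and its relative Ep300 was also higher (2.1, adjusted p = 0.00268).

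Genes known to respond to retinoic acid were split in direction. Of 13 tested, MGS had 2 higher and 9 lower at day 5, beside 22.5% and 26.4% of all genes. At day 32, 4 were higher and 2 lower, beside 52.8% and 14.8% of all genes. That split became 4 and 5 after median-of-ratios scaling and 3 and 8 after quantile normalization. Among the 9 lower at day 5, some homeobox genes reached 1 TPM only in CV libraries. They passed the filter only through the group where they were high, so this count is partly set by the filter. Tgm2, tissue transglutaminase, was listed at 181 and 183 TPM in MGS and 8.24 and 8.60 in CV at day 5 (log2 difference 4.28, SE 0.19, adjusted p = 3.85e-06), and at 53.3 and 57.1 against 16.3 and 25.4 at day 32 (1.39, adjusted p = 0.000606). Rarres2, which encodes the chemoattractant chemerin, was listed at 70.3 and 68.5 TPM in MGS and 8.45 and 7.47 in CV at day 5 (2.98, adjusted p = 6.88e-06) and was higher at day 32 too (2.43, adjusted p = 1.19e-05). Gprc5a, a membrane receptor induced by retinoic acid, went the other way, at 8.91 and 7.80 TPM in MGS and 56.4 and 54.7 in CV at day 5 (-2.60, SE 0.21, adjusted p = 5.42e-05) and lower at day 32 as well (-2.14, adjusted p = 9.61e-05). The homeobox genes Meis2, Hoxa5 and Meis1 were lower in MGS at day 5 (-1.41, -1.25 and -1.02, adjusted p = 0.012, 0.00319 and 0.00656), and Hoxb4 was lower at day 32 (-1.14, adjusted p = 0.000108). Hoxb4 stood at 0.584 and 0.651 TPM in MGS and 2.57 and 2.54 in CV at day 32, and it passed the filter only through CV. Rai14 and Rarres1 were higher at day 32 (1.42 and 0.94, adjusted p = 0.00128 and 0.00152). The list holds genes controlled by many other signals besides retinoic acid.

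With time in MGS, 19 of the 50 genes rose and 10 fell, where 35% and 7.53% of all genes did, with a median of 0.14 beside 0.36 over all genes. The balance turned over to 13 higher and 18 lower after median-of-ratios scaling, 10 and 21 after quantile normalization and 9 and 17 with the correction for length and GC content. Of the 10 that fell, 5 were carriers, among them Ttr at -2.95 (SE 0.16, adjusted p = 6.67e-05), Cd36 at -2.43 (adjusted p = 0.00117) and Fabp5, a lipid binding protein that can carry retinoic acid, at -1.76 (adjusted p = 0.000216). Lrp2 rose by 3.29 (SE 0.24, adjusted p = 0.000154) and Rdh10 by 1.46 (adjusted p = 0.00168). Leaving out any 1 of the 4 MGS libraries left 10 to 13 calls of the 29. In CV, 8 rose and 25 fell, where 16% and 37.7% of all genes did, with a median of -0.48 beside -0.31. That split became 18 and 20, 15 and 22, and 14 and 22 under the same 3 alternatives, and 21 calls were left without library 2 of day 5. Dhrs3 rose by 3.13 (SE 0.10, adjusted p = 1.02e-06) and Rbp2 by 2.42 (adjusted p = 6.21e-05), while Rlbp1 fell by 3.14 (SE 0.16, adjusted p = 8.06e-06).

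The effect of culture differed between the days, by the interaction term of the model, for 31 of the 50 genes, 23 with a higher and 8 with a lower value at day 32, where 49.7% and 12.3% of all genes were called in these directions and the median was 0.65. Among the lower values were Cd36 at -4.31, Dhrs3 at -3.55, Tgm2 at -2.89, Ttr at -2.40, Rbp2 at -0.99, Fabp5 at -0.82 and Dhrs4 at -0.68. The highest were Lrp2 at 4.31 (SE 0.34, adjusted p = 0.00011) and Nrip1 at 3.71 (SE 0.36, adjusted p = 0.000256). The split became 18 higher and 18 lower after median-of-ratios scaling, 18 and 19 after quantile normalization and 18 and 16 with the correction for length and GC content.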

How the data were processed

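Groups and replicate numbers came from the sample titles. The submitters' processing notes name StringTie 1.3.4d, HISAT2 2.1.0 and bcl2fastq, together with the builds mm10 and hg38, whose roles they do not give. The annotation and the use of strand are not given in the sources used here. Coordinates are those of the files (mm10), in which 0 other gene rows overlapped any of the 9 genes. The authors deposited TPM, FPKM and coverage for each gene row of each library, per the file headers, and a table of TPM for the series. TPM rows of 1 gene ID were summed. Deposited FPKM served as an alternative, and deposited coverage over FPKM gave the aligned bases. Since these units are not counts, errors are the spread between libraries.

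Genes with at least 1 TPM in at least 2 libraries were fitted as log2(TPM + 1) with limma 3.58.1 in R 4.3.3, as 4 group means over 8 libraries (4 residual degrees of freedom, variance trend, two-sided tests, Benjamini-Hochberg over 14904 genes). An exact permutation test of 2 libraries against 2 cannot go below 0.333. The fit, the search for similar profiles and the motif search were tested on simulated data. The 9 genes, the pathway and marker lists and the tests were chosen with earlier results of these data known. In each comparison the text names, per role, up to 4 called genes in each direction by size, together with Aldh1a7 and genes at 0 in every library; some genes that count in the totals are not reported here by name. Comparisons that share libraries are not independent. Stra6l, Bco1 and Cfap43 were found under the older symbols 1300002K09Rik, Bcmo1 and Wdr96, and Dnah12 was not matched. Promoters were read from a RefSeq table (GRCm38.p6). Alternatives were other scalings, FPKM, a pseudocount of 0.1, no filter, the deposited table, a length and GC correction (values for 99.3% of genes), the replicate number as a block, no variance trend and each library left out.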

Additional observations from a re-analysis of the deposited data

Results flagged for a closer look

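The culture effect of the following genes differed between the days by the interaction term of the model (limma, adjusted p under 0.05); values are the log2 difference at day 32 minus that at day 5. Among carriers these were Cd36 at -4.31, Ttr at -2.40, Rbp2 at -0.99, Fabp5 at -0.82, Scarb1 at 0.85, Rbp3 at 1.78 and Lrp2 at 4.31. Rbp3 passed the filter only through CV at day 5, the group where it was highest. Among enzymes and the visual cycle they were Dhrs3 at -3.55, Dhrs4 at -0.68, Rdh5 at 0.51, Rdh10 at 1.41, Rdh13 at 1.55, Rlbp1 at 1.93, Aldh1a7 at 2.08 and Rdh11 at 2.32. The receptor Rxrg stood at 1.95, with both CV libraries of day 32 listed at 0, so that its size depends on the pseudocount. Cofactors were Ncoa2 at 2.42, Ncor1 at 2.43, Ep300 at 2.69, Crebbp at 3.20 and Nrip1 at 3.71. Response genes were Tgm2 at -2.89, Rarres1 at 1.11, Hoxa5 at 1.13, Rai14 at 1.3 and Meis2 at 2.03. The median over all genes was 0.65, so values near it stand close to the median gene.

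Aldh1a3 and Cyp26b1, of the 9 genes, were lower in both MGS libraries than in both CV libraries at day 5 and higher in both at day 32. For Aldh1a3, under 1 TPM in both cultures at day 32, that later difference turned negative in 3 of 18 alternatives, so no change of sides is read from it. The differences between the days were 1.76 for Aldh1a3 and 2.23 for Cyp26b1. They are a description with no test given, since the genes were chosen on these values.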

How the results depend on the processing

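The directions of the 9 genes were the same in all 18 alternatives, except for Aldh1a3 at day 32 (15 of 18), Crabp1 (13), Rbp4 (15) and Cyp26b1 (15) between the days in CV, and the interaction of Aldh1a1 (14). Their sizes held less well. Over the alternatives, 203 of their differences moved by at least the residual SD of the gene and 553 did not. Median-of-ratios scaling moved 35 and left 7. Rbp4 is left out of these counts where CV at day 5 enters. For Rarb at day 32 the difference ranged from 0.45 to 1.53. Counts of called pathway genes stayed within 1.5 times of those reported under every other scaling, unit, pseudocount, filter and correction, but calls per direction shifted, as given beside the counts for 4 of the 5 comparisons. FPKM gave, higher and lower among 45 genes tested, 19 and 13 at day 5, 22 and 9 at day 32, 13 and 14 between the days in MGS, 14 and 19 in CV and 18 and 16 in the interaction. Of the 33 calls at day 32, 24 were shared after median-of-ratios scaling and 23 after quantile normalization. With 1 library left out, the 29 calls of the comparison of days in MGS became 10 to 33, and the 33 calls of that in CV became 21 to 35. The count over all genes tested moved by more than 1.5 times in the same way, from 7291 to 4523 at the lowest for the cultures at day 5, from 6335 to between 2455 and 9732 for the days in MGS, and from 7997 to 4830 at the lowest for the days in CV. Leaving out 1 library ended calls, for the cultures at day 5, of Rlbp1, Rdh10, Rdh12, Rdh13, Adh5, Bco2, Rxra, Ncoa3, Meis1 and Meis2, at day 32 of Rbp2, Rdh10, Rdh13 and Dhrs4, and in the interaction of Rbp2, Rdh5, Dhrs4 and Hoxa5. A lone library is then assumed to vary like the other groups.

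The following pathway genes changed sign, and the cause was not tested. Quantile normalization gave, at day 32, -0.24 for Rbp2, -0.20 for Rdh13, -0.85 for Aldh1a7, -0.19 for Bco2 and -0.027 for Rara, and -0.15 for the interaction of Rdh5. Median-of-ratios scaling gave -0.46 for Aldh1a7 at day 32 and -0.30 for the interaction of Rdh5, and FPKM gave -0.0043 for the latter. The length and GC correction, with or without the replicate block, gave -0.29 for Meis1 between the days in MGS and 0.017 for Lrp2 between the days in CV. Over named pathway genes and alternatives, a call was lost without a change of sign in 202 repeats and kept its side of the threshold in 2050.

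Replicate numbers are shared between the groups, but no label says that they mark a shared culture or day. Across genes, the differences between libraries 1 and 2 correlated with r of 0.444 between the 2 CV groups. In the other pairs of groups r lay from -0.131 to 0.175. The main model takes no account of such a pairing. With the replicate block, 38 of the 50 pathway genes were called at day 5, 34 at day 32, 30 between the days in MGS, 35 in CV and 34 in the interaction. Depth limits the low values, since Rbp4 and Stra6 in CV, and Aldh1a3 outside CV at day 5, lie under 1 TPM.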
